A study of Mus musculus with 45 samples.

Results

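The 45 genes described here encode assembly factors of the large ribosomal subunit. They were taken by symbol from the 55385 genes quantified in 18 RNA-seq libraries of mouse embryos and embryonic stem cells. The list of symbols sets no threshold on a measured value, but it was drawn up with earlier results of these data known. All 45 symbols were found, and all 45 genes had enough reads to be tested at each of 4 stages.

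Ribosome assembly starts in the nucleolus, where RNA polymerase I makes the ribosomal RNA precursor. Assembly factors bind it, fold it, cut out its spacers and fit the ribosomal proteins into place, and most of them leave before the subunit takes part in translation. In the preimplantation embryo the nucleolus is built up from dense precursor bodies while the zygotic genome is switched on, and embryonic stem cells, which divide fast, make many ribosomes.

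By their known roles, *Ddx18*, *Ddx24*, *Ddx27*, *Ddx51*, *Ddx54* and *Ddx56* encode DEAD-box RNA helicases, and *Nvl* and *Mdn1* encode AAA ATPases that pull factors off the maturing particle. *Pes1*, *Bop1* and *Wdr12* form the PeBoW complex, and *Noc2l* and *Noc3l* belong to the Noc complexes, which escort the particle within the nucleus. *Nop2* and *Ftsj3* encode methyltransferases of ribosomal RNA, and *Nip7* a partner that binds at the same site. *Rpf2* and *Rrs1* dock the 5S ribonucleoprotein. *Gtpbp4*, *Gnl2*, *Gnl3*, *Gnl3l* and *Lsg1* encode GTPases. *Las1l*, *Nop53*, *Nle1* and *Wdr74* act in spacer cutting and in remodelling of the nuclear particle. *Mrto4* and *Rsl24d1* hold the places of ribosomal proteins, and *Nmd3* is the adaptor for nuclear export. The other 15 are *Brix1*, *Ebna1bp2*, *Mak16*, *Nifk*, *Nol12*, *Nop16*, *Pak1ip1*, *Ppan*, *Rpf1*, *Rrp1*, *Rrp1b*, *Rrp15*, *Rsl1d1*, *Sdad1* and *Tma16*, most of them structural factors of the nucleolar particle.

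All embryos and cells carried a degron tag on both *Gabpa* alleles (Gabpa-dTAG/dTAG), the controls included. GABPA is an ETS-family transcription factor, and dTAG13 is a small molecule that brings tagged protein to a ubiquitin ligase for degradation. Embryos came from in vitro fertilisation (females aged 7 to 8 weeks, males 8 to 12 weeks) and were cultured with 1 μM dTAG13 or with DMSO, the solvent. Late 2-cell embryos were treated from the zygote on (3 libraries of each group) and morulae from the 4-cell stage on (2 of each). The E4.5 ICM group holds inner cell masses isolated from treated blastocysts by immunosurgery (2 of each), which mix epiblast and primitive endoderm cells, and the study's text places their collection at the mid-blastocyst stage. 2iES cells, embryonic stem cells kept in medium with 2 kinase inhibitors, carried the tag after single clones were picked, and how many clones entered the libraries is not given in the sources used here. They were treated with 0.5 μM dTAG13 for 24 h or with DMSO (2 of each). The study describes the libraries of a group as biological replicates. The number of embryos pooled in each is not given in the sources used here.

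Expected counts, the reads assigned to a gene by the authors' quantification, summed to between 9457933 and 12382705 in the morula libraries and to between 18266057 and 27660132 in the others. The lowest count of a member in any library was 38. TPM, a measure of transcript abundance scaled by gene length and library size, is given as the level, and fold changes come from the counts. The *Gabpa* transcript measured 106, 116 and 87.3 TPM with DMSO and 162, 141 and 156 TPM with dTAG13 in late 2-cell embryos (log2 fold change 0.52, SE 0.11, adjusted p = 0.0124), and it was also higher in the ICM and in 2iES cells (log2 0.95, adjusted p = 7.77e-19, and 0.93, adjusted p = 0.00136). In morulae it was 6.67 and 8.13 TPM with DMSO and 13.6 and 12.8 TPM with dTAG13 (log2 0.74, adjusted p = 0.152). dTAG13 acts on the protein, so the transcript does not check its loss.

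GABPA is known to bind DNA with the letters CCGGAAG, which read CTTCCGG on the other strand. RefSeq promoter windows on GRCm38.p6, from 250 bases before to 50 after the start of a gene, were in the table for 37 of the 45 members, and 18 of the 37 held the motif on either strand (48.6%, Wilson 95% interval 33.4 to 64.1). Of all 27025 genes in the table, 9.93% held it. The other ribosome genes were alike in this, with 40.4% of 47 small subunit factors and 41.2% of 34 large subunit ribosomal proteins. With 1 more letter (CCGGAAGT) the shares were 32.4% of members and 4.31% of all genes, and with the shorter CGGAAG, whose matches include those of both longer forms, 64.9% and 18.8%. In the 250 bases before the start alone, 29.7% of members and 7.83% of all genes held CCGGAAG. There the shares were 34.0% of small subunit factors and 23.5% of large subunit ribosomal proteins. A match is a description of letters and not a bound site, and binding was not analysed here.

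The stretches of 9 of these promoters follow, each as 90 bases before and 30 bases from the start, 5′ to 3′ on the strand of the gene, with CCGGAAG or CTTCCGG in capitals. They were chosen after the expression values were seen. *Rpf2*, *Ebna1bp2*, *Nip7* and *Wdr74* were lower with dTAG13 by at least 2-fold at 3 stages, and *Lsg1* at 2.
Rpf2 (chr10:40247010-40247129, minus strand): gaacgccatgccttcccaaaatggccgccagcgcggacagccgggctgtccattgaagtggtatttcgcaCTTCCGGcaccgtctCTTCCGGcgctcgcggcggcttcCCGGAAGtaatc
Ebna1bp2 (chr4:118620709-118620828, plus strand): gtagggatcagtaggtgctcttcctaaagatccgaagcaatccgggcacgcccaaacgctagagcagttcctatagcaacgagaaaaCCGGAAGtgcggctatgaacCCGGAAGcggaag
Nip7 (chr8:107056787-107056906, plus strand): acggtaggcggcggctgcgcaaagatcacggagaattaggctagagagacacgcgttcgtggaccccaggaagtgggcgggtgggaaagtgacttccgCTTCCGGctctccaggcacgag
Wdr74 (chr19:8735749-8735868, plus strand): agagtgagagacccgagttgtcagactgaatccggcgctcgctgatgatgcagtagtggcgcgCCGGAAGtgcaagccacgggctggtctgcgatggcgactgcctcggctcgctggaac
Lsg1 (chr16:30587560-30587679, minus strand): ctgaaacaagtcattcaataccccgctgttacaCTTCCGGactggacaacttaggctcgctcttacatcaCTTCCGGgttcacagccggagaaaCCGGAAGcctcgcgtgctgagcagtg

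*Rsl24d1* and *Brix1* hold the letters too, and their expression moved in unlike ways between the stages. *Nifk* was much lower in the ICM and in 2iES cells and *Gnl3* was higher in both, and no match stands in the window of either, although the *Nifk* stretch holds the shorter CTTCCG.
Rsl24d1 (chr9:73113379-73113498, plus strand): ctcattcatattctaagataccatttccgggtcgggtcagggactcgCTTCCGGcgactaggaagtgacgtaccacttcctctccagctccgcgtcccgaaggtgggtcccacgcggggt
Brix1 (chr15:10485908-10486027, minus strand): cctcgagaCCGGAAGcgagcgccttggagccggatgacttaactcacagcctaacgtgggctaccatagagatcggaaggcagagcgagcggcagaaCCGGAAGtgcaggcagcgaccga
Nifk (chr1:118321753-118321872, plus strand): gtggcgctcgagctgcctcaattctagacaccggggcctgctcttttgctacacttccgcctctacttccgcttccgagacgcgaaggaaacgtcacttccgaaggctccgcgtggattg
Gnl3 (chr14:31019102-31019221, minus strand): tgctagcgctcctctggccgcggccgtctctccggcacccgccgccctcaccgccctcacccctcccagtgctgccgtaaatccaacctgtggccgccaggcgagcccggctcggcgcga

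*Rpf2* and *Lsg1* held 3 matches each in these stretches, and *Ebna1bp2* and *Brix1* held 2. In *Rpf2* the 3 matches lay within the last 50 bases of the stretch.

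Without degradation, the summed level of the large subunit factors was highest in late 2-cell embryos, but the median member was highest in the ICM. The median of the members' mean levels was 60.7 TPM at late 2-cell, 53.9 in morulae, 84.6 in the ICM and 70.4 in 2iES cells. The summed level of the 45 genes was 7050, 7143 and 7447 TPM in the 3 late 2-cell DMSO libraries, 2710 and 3253 in morulae, 4653 and 4740 in the ICM and 5476 and 5198 in 2iES cells. Between genes the levels spread widely. The group means ran from 6.22 to 831 TPM in late 2-cell embryos, where *Brix1*, a Brix-domain factor of the nucleolar particle, was highest and *Gnl3l* lowest, and from 2.53 to 564 TPM in 2iES cells, from *Ddx54* to *Brix1*. The stages also differed in how cells were obtained, since the ICM was isolated by immunosurgery and 2iES cells were grown in culture, and whether their libraries were prepared together is not given in the sources used here, so stage and preparation cannot be told apart.

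From late 2-cell to morula, 26 members fell and 6 rose (edgeR over the 9 DMSO libraries, adjusted p under 0.05, here called passing), where 38.0% of all genes tested were lower and 31.2% higher. With upper-quartile scaling 23 fell and 10 rose. *Lsg1*, the cytoplasmic GTPase that frees NMD3 from the subunit, measured 184, 162 and 176 TPM at late 2-cell and 19.9 and 26.5 TPM in morulae, a log2 difference of -2.59 (SE 0.17, adjusted p = 5.44e-08). *Nmd3* itself went from 553, 614 and 648 to 102 and 136 TPM (-2.09, SE 0.16, adjusted p = 1.65e-07). Both genes of the last cytoplasmic step stood lower in every morula library than in every late 2-cell library. *Noc3l* (-1.74, SE 0.15, adjusted p = 5.94e-07), *Gtpbp4* (-1.68, SE 0.14, adjusted p = 4.93e-07) and *Nop16* (-1.66, SE 0.17, adjusted p = 2.38e-06) came next. *Rrp1* (0.98, SE 0.17, adjusted p = 0.000260), *Noc2l* (0.92, SE 0.18, adjusted p = 0.000637), *Mdn1* (0.90, SE 0.16, adjusted p = 0.000279), *Ddx56* (0.58, SE 0.16, adjusted p = 0.00596) and *Wdr12* (0.47, SE 0.14, adjusted p = 0.00882) rose, and the call of *Ddx56* was lost without DMSO replicate 2 of the morula (adjusted p = 0.0693). The 47 large subunit ribosomal protein genes, the parts that these factors assemble, went the other way, with 46 higher and none lower. Their summed level was 28364, 28773 and 30306 TPM at late 2-cell and 115143 and 96799 TPM in morulae.

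From morula to ICM, 19 members rose and 4 fell, against 24.6% and 21.0% of all genes, and with upper-quartile scaling 12 rose and 6 fell. *Rrp1b* measured 22.4 and 20.7 TPM in morulae and 70.1 and 85.1 TPM in the ICM (log2 2.00, SE 0.16, adjusted p = 1.83e-06), and *Nop2*, the methyltransferase, 11.3 and 10.5 TPM in morulae and 47.9 and 50.3 TPM in the ICM (1.77, SE 0.18, adjusted p = 8.68e-06). *Lsg1* (1.43, SE 0.17, adjusted p = 3.49e-05), *Bop1* (1.21, SE 0.23, adjusted p = 0.00105) and *Rrs1* (1.18, SE 0.18, adjusted p = 0.000258) rose as well. The 4 lower members were *Gnl3l* (-0.96, SE 0.28, adjusted p = 0.0133), *Tma16* (-0.83, SE 0.14, adjusted p = 0.000488), *Mdn1* (-0.52, SE 0.18, adjusted p = 0.0284) and *Noc3l* (-0.45, SE 0.16, adjusted p = 0.0337). Of these, *Tma16* alone passed with each library left out in turn, and the number of higher members was 12 without ICM DMSO replicate 1 and 10 without replicate 2.

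Between ICM and 2iES cells, 22 members were higher in the cells and 11 lower (21.9% and 20.7% of all genes), but with library totals in place of TMM scaling 14 were higher and 17 lower, so the balance between the directions rests on the scaling. *Mak16*, which measured 114 and 109 TPM in the ICM and 246 and 231 TPM in the cells, differed most on the higher side (log2 1.74, SE 0.17, adjusted p = 1.12e-05), followed by *Rpf2* (1.56, SE 0.23, adjusted p = 0.000219), *Nip7* (1.54, SE 0.16, adjusted p = 1.73e-05), *Brix1* (1.43, SE 0.18, adjusted p = 5.64e-05) and *Rpf1* (1.42, SE 0.16, adjusted p = 3.34e-05). The lower members included *Ddx54* (-1.50, SE 0.22, adjusted p = 0.000207), *Noc2l* (-1.39, SE 0.20, adjusted p = 0.000193), *Ddx51* (-1.38, SE 0.21, adjusted p = 0.000305), *Rrs1* (-1.01, SE 0.18, adjusted p = 0.000807) and *Pes1* (-0.97, SE 0.21, adjusted p = 0.00254). With either ICM DMSO library left out, 7 members were lower.

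In late 2-cell embryos, 23 of the 45 members were lower with dTAG13 and none higher. Of 17421 genes tested, 7.24% were lower and 1.32% higher. The median log2 fold change of the members was -0.33, against 0.024 over all genes, and 42 members had a negative value. With upper-quartile scaling 19 were lower and 33 negative (median -0.22), and with library totals 20 were lower and 38 negative. With a library left out, 19 to 21 were lower. Their summed level was 7050, 7143 and 7447 TPM with DMSO and 5476, 5269 and 5701 TPM with dTAG13, and the groups did not overlap. By the stricter rule, which also asks for a change of at least 2-fold and a mean FPKM (fragments scaled by gene length and library size) of at least 1, 9 members were lower and none higher, against 3.63% and 0.476% of all genes.

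*Gnl2*, a GTPase of the nuclear particle, measured 53.5, 37.2 and 50.7 TPM with DMSO and 10.4, 10.8 and 9.12 TPM with dTAG13 (log2 fold change -2.18, SE 0.14, adjusted p = 9.38e-06). *Ppan*, a Brix-domain factor of the early particle, measured 52.1, 51.8 and 51.0 TPM with DMSO and 6.94, 5.82 and 13.8 TPM with dTAG13 (log2 fold change -2.12, SE 0.35, adjusted p = 0.00314). In both, each dTAG13 library lay under the lowest DMSO library. *Ebna1bp2*, the counterpart of yeast Ebp2, measured 322, 338 and 379 TPM with DMSO and 105, 104 and 121 TPM with dTAG13 (log2 fold change -1.77, SE 0.11, adjusted p = 6.64e-06). The 5S docking factor *Rpf2* stood at 276, 269 and 309.9 TPM with DMSO and 81.4, 101 and 112 TPM with dTAG13 (log2 fold change -1.73, SE 0.12, adjusted p = 1.00e-05), and *Nip7*, the partner of NOP2, at 265, 281 and 313 TPM with DMSO and 89.3, 78.0 and 96.2 TPM with dTAG13 (log2 fold change -1.73, SE 0.089, adjusted p = 4.37e-06). These 3 genes were abundant with DMSO and lay close together, with no overlap between the groups.

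The other 4 genes past 2-fold changed by similar amounts. *Lsg1* measured 184, 162 and 176 TPM with DMSO and 72.2, 74.9 and 82.4 TPM with dTAG13 (log2 fold change -1.23, SE 0.10, adjusted p = 2.65e-05). *Ftsj3*, which encodes a 2′-O-methyltransferase of ribosomal RNA, measured 40.2, 41.8 and 42.3 TPM with DMSO and 18.9, 20.5 and 18.4 TPM with dTAG13 (log2 fold change -1.16, SE 0.11, adjusted p = 7.00e-05). *Wdr74*, which works with NVL on the nuclear particle, measured 218, 234 and 222 TPM with DMSO and 110.4, 109 and 119.8 TPM with dTAG13 (log2 fold change -1.12, SE 0.093, adjusted p = 3.13e-05). *Noc3l* measured 36.1, 31.2 and 35.8 TPM with DMSO and 18.2, 15.3 and 16.5 TPM with dTAG13 (log2 fold change -1.12, SE 0.10, adjusted p = 5.74e-05). None of the 4 had overlapping groups, and all 9 members named so far passed with any 1 library left out.

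Of the 14 members that passed without the 2-fold, the changes were largest in *Ddx24* at -0.89 (SE 0.089, adjusted p = 0.000111), *Nvl* at -0.85 (SE 0.13, adjusted p = 0.00187), *Sdad1*, which takes part in export of the particle, at -0.73 (SE 0.11, adjusted p = 0.00208), *Ddx27* at -0.72 (SE 0.12, adjusted p = 0.00350) and *Nifk* at -0.72 (SE 0.092, adjusted p = 0.000615). Of the 8 helicases and ATPases, 5 were lower. Both 5S docking factors, 2 of the 3 genes around the methyltransferases and 9 of the 15 structural factors were lower. None of the 3 PeBoW genes passed, and they had fold changes from -0.10 (*Bop1*) to 0.057 (*Pes1*). The calls of *Brix1*, *Rsl24d1*, *Rrs1*, *Rrp15* and *Ddx56* at this stage each failed when at least 1 library was left out, and the first 3 failed in 11, 9 and 8 of the alternatives.

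The summed level of oocyte markers moved at this stage as well. The 8 oocyte markers summed to between 1385 and 1400 TPM with DMSO and between 1757 and 1988 TPM with dTAG13, with 1 of 8 higher by the test. Most of the sum was *Oosp1*, at 1170 to 1180 TPM with DMSO and 1484 to 1717 TPM with dTAG13. *Gdf9* and *Zp3* were also higher without overlap, while *Bmp15*, *Zp2*, *Nlrp5*, *Mos* and *Ooep* overlapped between the groups. The sums of the 7 markers of the 2-cell embryo overlapped as well. The 6 fibroblast markers, none called, summed to between 3.49 and 4.86 TPM with DMSO and between 5.99 and 13.9 TPM with dTAG13, without overlap, and 4 of them, *Col1a1*, *Col1a2*, *Col3a1* and *Pdgfrb*, stayed under 1 TPM in each library. Their part in the result was not tested.

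**Figure D1:**
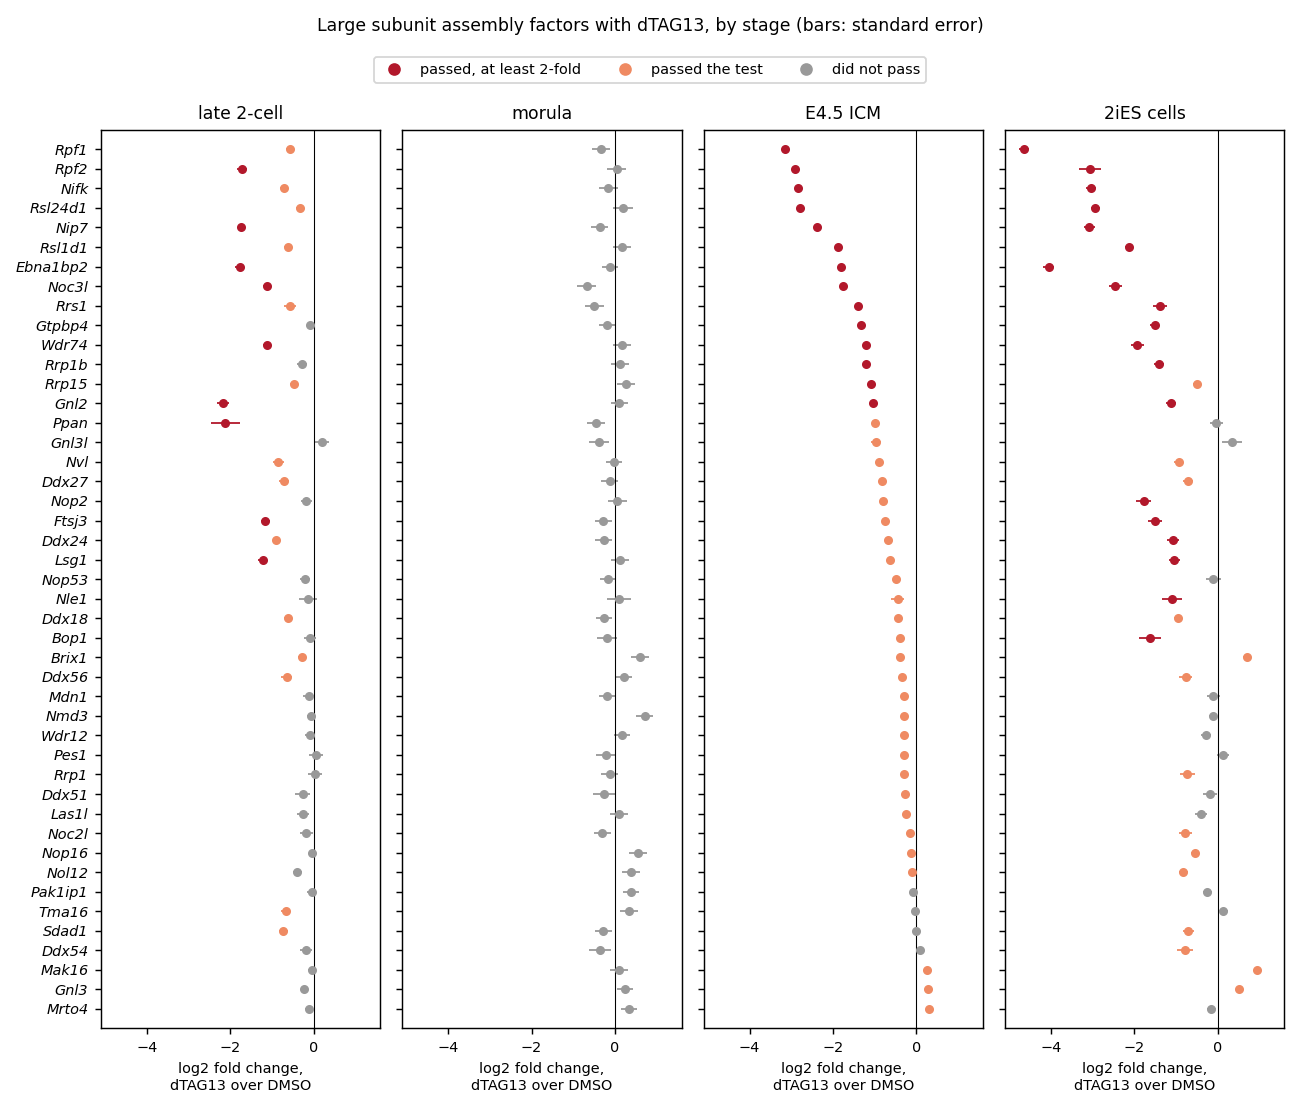
Log2 fold change (dTAG13 over DMSO, horizontal axis) of each of the 45 genes (rows, ordered by the E4.5 ICM) at the 4 stages (panels), with standard error bars and with colour for the outcome of the test. Late 2-cell embryos had 23 genes lower, morulae none, the ICM 38 lower and 3 higher, and 2iES cells 30 lower and 3 higher.

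In morulae no member passed the edgeR test in either direction, and few genes did in all, since 0.205% of 13667 were lower and 0.161% higher (0.198% and 0.154% by the stricter rule). The median log2 fold change of the members was -0.024 with 23 negative values, and the summed level, 2710 and 3253 TPM with DMSO and 3326 and 3113 TPM with dTAG13, overlapped between the groups. Unadjusted p was under 0.05 for 5 members (11.1%), against 13.6% of all genes, and limma on TPM called none. The median standard error of the members was 0.21, against 0.11 at late 2-cell, 0.041 in the ICM and 0.13 in 2iES cells. Changes within this error could not be told from 0, and changes well past it failed as well, as in the members named next. The part of depth, of replicate spread and of the number of libraries in this was not tested. The 2-cell markers, 1 of 7 higher, summed to 0.790 and 1.18 TPM with DMSO and to 7.34 and 7.36 TPM with dTAG13. The sums of trophectoderm (426 and 488 TPM with DMSO, 510 and 570 TPM with dTAG13), epiblast (8527 and 8606, 9636 and 10016) and primitive endoderm markers (218 and 229, 241 and 256) were also higher without overlap. So were those of the oocyte and fibroblast lists, and no marker of these lists was called. The part of these markers in the results was not tested.

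The members farthest from 0 were *Nmd3* at 102 and 136 TPM with DMSO and 211 and 184 TPM with dTAG13 (log2 fold change 0.71, SE 0.20, adjusted p = 0.166) and *Noc3l* at 7.79 and 8.73 TPM with DMSO and 5.90 and 4.36 TPM with dTAG13 (log2 fold change -0.68, SE 0.23, adjusted p = 0.227). The dTAG13 libraries lay above both DMSO libraries for *Nmd3* and below both for *Noc3l*. Such separation was common in morulae, with 13 members below and 7 above, though none passed the edgeR test. At late 2-cell 25 members lay below and 0 above, and in the ICM and in 2iES cells 36 below and 4 above. Over all genes it was not counted, so separation of groups is given only as a description. DESeq2 called *Nmd3* higher (adjusted p = 0.0429), and a fit of all 18 libraries called *Noc3l* lower (log2 -0.60, adjusted p = 0.0406) and *Nmd3*, *Brix1* and *Nop16* higher. Without DMSO replicate 2, *Nmd3*, *Brix1* and *Nop16* were called higher. Of the genes past 2-fold at late 2-cell, *Gnl2* was at 0.11 (SE 0.20, adjusted p = 0.857), *Rpf2* at 0.036 (SE 0.23, adjusted p = 0.967) and *Ebna1bp2* at -0.12 (SE 0.19, adjusted p = 0.836).

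At adjusted p under 0.05 in the fits of single stages, the ICM had the most calls, with 38 of the 45 members lower and 3 higher. Here 38.5% of the 15840 genes tested were lower and 38.4% higher, so that the calls must be read against a large background. The stricter rule gave 19 lower members in 2iES cells but 14 lower and none higher in the ICM, against 13.2% and 12.1% of all genes in the ICM. The median of the members was -0.49 and that of all genes 0.0062. Summed over the members, the level was 4653 and 4740 TPM with DMSO and 3187 and 3206 TPM with dTAG13. The 2 libraries of a group differed little at this stage, with standard errors from 0.026 to 0.15, and a fit of all 18 libraries, with a wider spread, called 24 members lower and 2 higher. In the ICM groups the median chi-square over that of sampling noise was 1.63 with DMSO and 1.69 with dTAG13, the lowest of all groups. The p-values of this stage rest on that small spread, and whether it holds the spread between embryos was not tested.

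Markers of other cell types moved with the treatment in these libraries. The 10 trophectoderm markers summed to 98.5 and 108 TPM with DMSO and to 1023 and 1026 TPM with dTAG13, with all 10 higher, although *Tfap2a* stayed under 1 TPM and *Cdx2* reached at most 2.57 TPM. The 10 epiblast markers, carried mostly by *Dppa5a*, summed to 22303 and 22519 TPM with DMSO and to 14849 and 15121 TPM with dTAG13, with all 10 lower. The 10 primitive endoderm markers summed to 579.7 and 588 TPM with DMSO and to 1099 and 1109 TPM with dTAG13, with 6 higher and 2 lower. The 8 oocyte markers, 3 lower and 1 higher, summed to 69.6 and 71.5 TPM with DMSO and to 41.7 and 43.0 TPM with dTAG13. Of these, 6 stayed under 1 TPM in each library, and most of the sum was *Ooep* (62.2 and 64.3 TPM with DMSO, 39.6 and 40.4 TPM with dTAG13). The part of all these markers in the results for this stage was not tested. In the ICM samples, as in morulae, fewer cells of a type and less RNA per cell cannot be told apart.

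The largest changes were those of *Rpf1*, *Rpf2*, *Nifk* and *Rsl24d1*, of which RPF1 and NIFK sit near the internal spacer of the early particle. *Rpf1*, a Brix-domain factor, measured 87.2 and 85.1 TPM with DMSO and 10.5 and 9.83 TPM with dTAG13 (log2 fold change -3.16, SE 0.057, adjusted p = 3.06e-34). *Nifk* measured 141 and 143 TPM with DMSO and 21.0 and 19.9 TPM with dTAG13 (log2 fold change -2.83, SE 0.041, adjusted p = 3.58e-37). *Rpf2* measured 116 and 119 TPM with DMSO and 18.5 and 18.4 TPM with dTAG13 (log2 fold change -2.92, SE 0.054, adjusted p = 7.46e-34). Each of these stood near the level of its own replicate and far from the other group. *Rsl24d1*, which holds the place of ribosomal protein L24, measured 205 and 214 TPM with DMSO and 31.7 and 30.6 TPM with dTAG13 (log2 fold change -2.79, SE 0.039, adjusted p = 7.30e-38). It shares 23.0% of its 31-base words with the gene model *Gm6457*, which measured 4.06 and 4.75 TPM with DMSO and 0 and 0.510 TPM with dTAG13, and reads may have been divided between both.

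*Nip7* measured 142 and 159.8 TPM with DMSO and 28.6 and 28.1 TPM with dTAG13 (log2 fold change -2.38, SE 0.040, adjusted p = 3.22e-35). *Rsl1d1*, a nucleolar protein with a ribosomal L1 domain, measured 310.4 and 307 TPM with DMSO and 87.0 and 84.8 TPM with dTAG13 (log2 fold change -1.88, SE 0.029, adjusted p = 2.63e-36). *Ebna1bp2* measured 205 and 221 TPM with DMSO and 65.8 and 64.0 TPM with dTAG13 (log2 fold change -1.81, SE 0.035, adjusted p = 3.32e-33). All 3 encode nucleolar proteins, and their dTAG13 libraries lay under each DMSO library. *Noc3l* measured 7.81 and 7.69 TPM with DMSO and 2.44 and 2.32 TPM with dTAG13 (log2 fold change -1.75, SE 0.093, adjusted p = 3.73e-19). *Rrs1*, the partner of RPF2 in 5S docking, measured 39.9 and 39.5 TPM with DMSO and 15.7 and 15.5 TPM with dTAG13 (log2 fold change -1.39, SE 0.055, adjusted p = 3.83e-23). *Gtpbp4*, a GTPase of the nucleolar particle, measured 113 and 107 TPM with DMSO and 54.1 and 51.7 TPM with dTAG13 (log2 fold change -1.32, SE 0.036, adjusted p = 2.17e-28). Here too the groups stood apart.

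The remaining 4 by the stricter rule changed less. *Wdr74* measured 148 and 147 TPM with DMSO and 74.2 and 72.8 TPM with dTAG13 (log2 fold change -1.20, SE 0.042, adjusted p = 4.37e-25). *Rrp1b* measured 70.1 and 85.1 TPM with DMSO and 39.2 and 41.2 TPM with dTAG13 (log2 fold change -1.20, SE 0.042, adjusted p = 8.22e-25). *Rrp15* measured 138 and 135 TPM with DMSO and 65.7 and 68.1 TPM with dTAG13 (log2 fold change -1.08, SE 0.039, adjusted p = 1.40e-24). In each, both dTAG13 libraries were below both DMSO libraries. *Gnl2* measured 77.5 and 81.8 TPM with DMSO and 41.4 and 40.8 TPM with dTAG13 (log2 fold change -1.03, SE 0.040, adjusted p = 1.45e-23), a smaller change than at the late 2-cell stage. Of the 24 other lower members, *Ppan* (-0.998, SE 0.041, adjusted p = 8.79e-23), *Gnl3l* (-0.97, SE 0.11, adjusted p = 1.70e-09), *Nvl* (-0.89, SE 0.049, adjusted p = 8.88e-19), *Ddx27* (-0.81, SE 0.042, adjusted p = 1.90e-19) and *Nop2* (-0.80, SE 0.042, adjusted p = 2.16e-19) changed most.

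The 3 higher members rose by small amounts. *Mrto4*, the placeholder for the stalk protein P0, measured 197 and 199 TPM with DMSO and 262 and 246 TPM with dTAG13 (log2 fold change 0.31, SE 0.032, adjusted p = 4.13e-11). *Gnl3*, which encodes nucleostemin, measured 312 and 313 TPM with DMSO and 434 and 425 TPM with dTAG13 (log2 fold change 0.28, SE 0.026, adjusted p = 1.74e-12). *Mak16* measured 114 and 109 TPM with DMSO and 139 and 141 TPM with dTAG13 (log2 fold change 0.25, SE 0.032, adjusted p = 1.31e-08). All 3 had both dTAG13 libraries above both DMSO libraries, and the call of *Mak16* failed in the fit of all 18 libraries (adjusted p = 0.149). All 3 PeBoW genes, both Noc genes, both docking factors and all 4 factors of spacer cutting and remodelling were lower, as were 7 of 8 helicases and ATPases and 11 of 15 structural factors. The 4 that did not pass were *Pak1ip1*, *Tma16*, *Sdad1* and *Ddx54*. In the fit of all 18 libraries the calls of the 3 PeBoW genes, *Noc2l*, *Nle1* and *Las1l* failed. So did those of *Ddx51*, *Ddx56*, *Mdn1*, *Nop16*, *Nol12*, *Brix1* and *Rrp1*. The calls of *Nle1* and *Nol12* also failed in DESeq2.

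In 2iES cells, 30 members were lower and 3 higher after 24 h of dTAG13. Of 15511 genes, 28.1% were lower and 26.5% higher. The median of the members was -0.78 against 0.030 over all genes, and the summed level went from 5476 and 5198 TPM to 3838 and 3963 TPM, without overlap. The stricter rule gave 19 lower members and none higher, against 15.6% and 12.4% of all genes. The trophectoderm markers, 2 of 10 higher and 1 lower, summed to 159 and 189.9 TPM with DMSO and to 200.2 and 212 TPM with dTAG13, without overlap, with *Cdx2*, *Gata3*, *Elf5* and *Tfap2a* under 1 TPM. The primitive endoderm markers, 2 of 10 higher, summed to at most 5.15 TPM in any library, and the sums overlapped. The 2-cell markers, 2 of 7 higher, summed to 4.56 and 24.6 TPM with DMSO and to 22.8 and 58.9 TPM with dTAG13. The epiblast markers, 4 of 10 lower, summed to 24675 and 28612 TPM with DMSO and to 21090.2 and 21285 TPM with dTAG13. The oocyte list, 2 of 8 lower, summed to 96.0 and 101 TPM with DMSO and to 60.4 and 61.8 TPM with dTAG13. Here too 6 of the 8 stayed under 1 TPM, and most of the sum was *Ooep* (86.7 and 87.7 TPM with DMSO, 56.8 and 59.8 TPM with dTAG13). The part of all these markers in the results was not tested.

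*Rpf1* again changed most and measured 155 and 146 TPM with DMSO and 6.19 and 6.22 TPM with dTAG13 (log2 fold change -4.65, SE 0.12, adjusted p = 1.88e-05). *Ebna1bp2* measured 178 and 144 TPM with DMSO and 10.4 and 9.16 TPM with dTAG13 (log2 fold change -4.05, SE 0.13, adjusted p = 1.88e-05). In both the groups lay more than 10-fold apart. *Nip7* measured 242 and 279 TPM with DMSO and 25.0 and 24.3 TPM with dTAG13 (log2 fold change -3.08, SE 0.13, adjusted p = 2.38e-05). *Rpf2* measured 163 and 279 TPM with DMSO and 26.4 and 26.3 TPM with dTAG13 (log2 fold change -3.07, SE 0.26, adjusted p = 0.000194), and its DMSO libraries differed from each other more than those of the other 5 genes in this paragraph. *Nifk* measured 117 and 109.7 TPM with DMSO and 12.5 and 14.2 TPM with dTAG13 (log2 fold change -3.03, SE 0.12, adjusted p = 2.10e-05). *Rsl24d1* measured 283 and 247 TPM with DMSO and 34.5 and 32.5 TPM with dTAG13 (log2 fold change -2.93, SE 0.11, adjusted p = 2.10e-05). These 6 genes include the 5 with the largest changes in the ICM.

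*Noc3l* measured 9.23 and 9.83 TPM with DMSO and 1.62 and 1.69 TPM with dTAG13 (log2 fold change -2.45, SE 0.15, adjusted p = 6.96e-05). *Rsl1d1* measured 412 and 387 TPM with DMSO and 90.7 and 96.8 TPM with dTAG13 (log2 fold change -2.13, SE 0.10, adjusted p = 2.93e-05), and *Wdr74* 176 and 128 TPM with DMSO and 45.8 and 47.0 TPM with dTAG13 (log2 fold change -1.92, SE 0.15, adjusted p = 0.000159). No library of one group reached the other in any of them. The genes around ribosomal RNA methylation were all lower, as *Nop2* measured 30.6 and 22.0 TPM with DMSO and 7.53 and 7.37 TPM with dTAG13 (log2 fold change -1.78, SE 0.17, adjusted p = 0.000324) and *Ftsj3* 23.5 and 29.8 TPM with DMSO and 10.2 and 9.83 TPM with dTAG13 (log2 fold change -1.51, SE 0.17, adjusted p = 0.000550). *Bop1*, the scaffold of the PeBoW complex, measured 22.8 and 13.1 TPM with DMSO and 5.83 and 5.56 TPM with dTAG13 (log2 fold change -1.62, SE 0.26, adjusted p = 0.00223). Its partners did not pass, with *Pes1* at 0.12 (SE 0.14, adjusted p = 0.475) and *Wdr12* at -0.27 (SE 0.12, adjusted p = 0.0898).

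Among the GTPases, *Gtpbp4* measured 125 and 126 TPM with DMSO and 49.0 and 46.0 TPM with dTAG13 (log2 fold change -1.51, SE 0.10, adjusted p = 8.99e-05), *Gnl2* 43.3 and 36.5 TPM with DMSO and 18.9 and 22.8 TPM with dTAG13 (log2 fold change -1.11, SE 0.12, adjusted p = 0.000531) and *Lsg1* 57.1 and 52.0 TPM with DMSO and 26.5 and 25.2 TPM with dTAG13 (log2 fold change -1.04, SE 0.13, adjusted p = 0.000907). *Rrp1b* (-1.41, SE 0.12, adjusted p = 0.000227), *Rrs1* (-1.39, SE 0.16, adjusted p = 0.000640), *Nle1* (-1.10, SE 0.25, adjusted p = 0.00899) and *Ddx24* (-1.07, SE 0.15, adjusted p = 0.00125) complete the stricter set. Their TPM were 71.9 and 58.9 with DMSO and 28.8 and 29.3 with dTAG13 for *Rrp1b*, 12.2 and 13.5 with DMSO and 4.94 and 4.36 with dTAG13 for *Rrs1*, 3.08 and 3.79 with DMSO and 1.44 and 2.01 with dTAG13 for *Nle1*, and 128 and 101 with DMSO and 53.6 and 59.2 with dTAG13 for *Ddx24*, without overlap. *Nle1*, the scarcest of them, no longer passed without dTAG13 replicate 1 (adjusted p = 0.0658). The largest changes short of 2-fold were those of *Ddx18* (-0.94, SE 0.10, adjusted p = 0.000431), *Nvl* (-0.94, SE 0.11, adjusted p = 0.000608), *Nol12* (-0.82, SE 0.11, adjusted p = 0.00117), *Ddx54* (-0.78, SE 0.20, adjusted p = 0.0144) and *Noc2l* (-0.78, SE 0.15, adjusted p = 0.00515). The call of *Ddx54* failed without either dTAG13 library.

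The 3 higher members were *Mak16*, *Brix1* and *Gnl3*. *Mak16* measured 246 and 231 TPM with DMSO and 495 and 496 TPM with dTAG13 (log2 fold change 0.95, SE 0.091, adjusted p = 0.000296), and *Brix1* 563 and 566 TPM with DMSO and 899 and 943 TPM with dTAG13 (log2 fold change 0.71, SE 0.088, adjusted p = 0.000829). *Gnl3* measured 355 and 352 TPM with DMSO and 511 and 526 TPM with dTAG13 (log2 fold change 0.52, SE 0.094, adjusted p = 0.00379) and no longer passed without either dTAG13 library (adjusted p = 0.0544 and 0.0722). The dTAG13 libraries lay above the DMSO libraries in all 3. *Brix1* was the most abundant member of 2iES cells and rose there, while it was lower in the ICM (316 and 315 TPM with DMSO and 248 and 244 TPM with dTAG13, log2 fold change -0.38, SE 0.026, adjusted p = 4.16e-16), a call that failed in the fit of all 18 libraries (adjusted p = 0.0578). Exons of *Mak16* lie over antisense exons of *Tti2* for 39.4% of their bases, and without strand the reads cannot be told apart, but *Tti2* was at most 3.52 TPM in these cells.

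**Figure D2:**
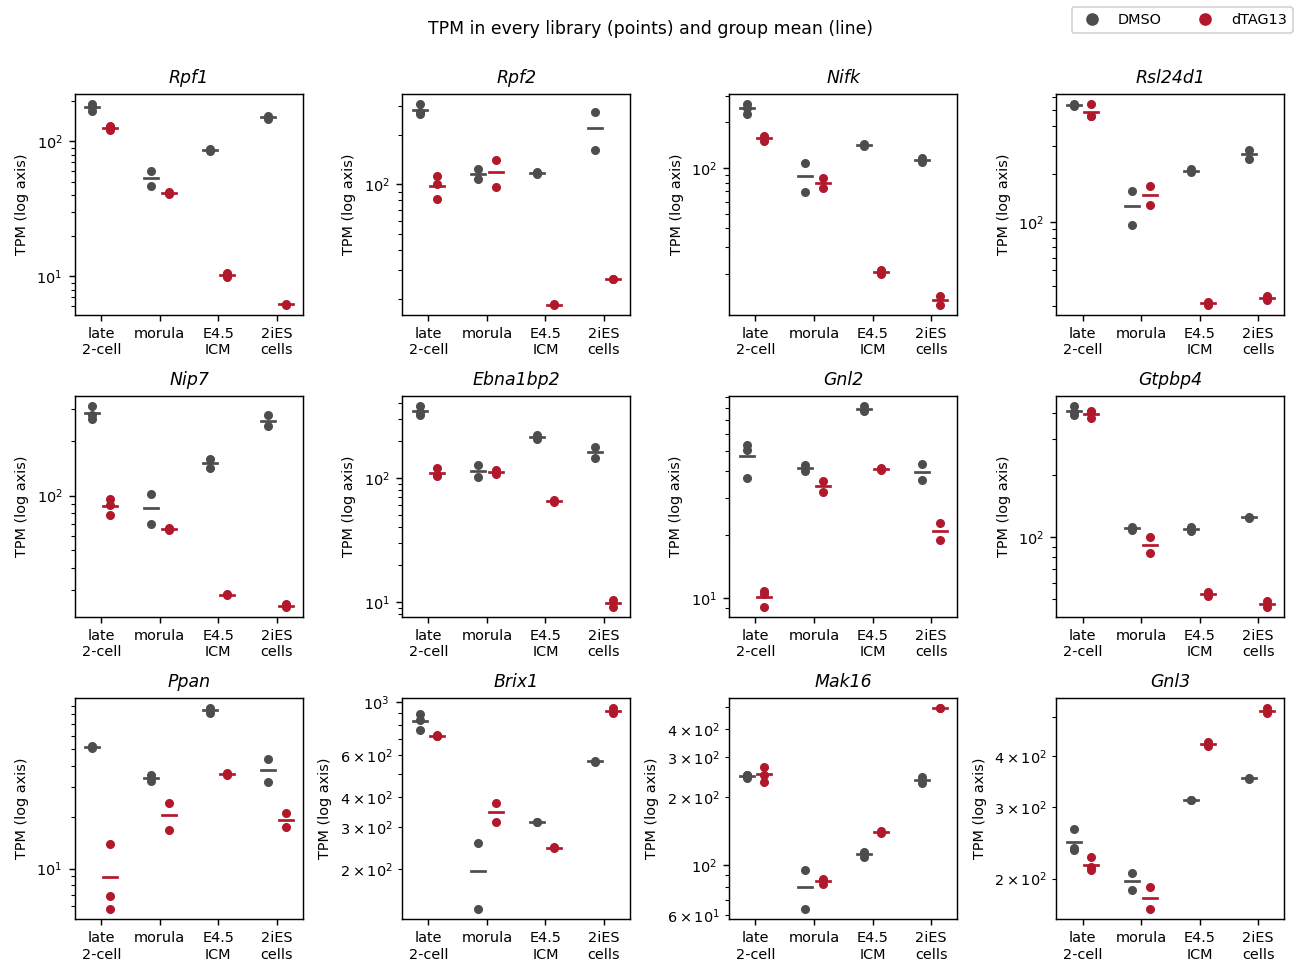
TPM (log axis) of 12 of the 45 genes in every library (points) at each stage, with the group mean as a line and DMSO in grey beside dTAG13 in red. *Rpf1* falls to about 6.2 TPM in 2iES cells with dTAG13, while *Mak16* and *Gnl3* rise there and *Gnl2* is lowest in late 2-cell embryos with dTAG13.

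*Ppan* shows how the choice of unit bears on a member. In 2iES cells its level was 43.8 and 32.3 TPM with DMSO and 17.6 and 21.0 TPM with dTAG13, while the counts gave no call (log2 -0.031, SE 0.16, adjusted p = 0.879), and limma on log2(TPM + 0.1) gave -0.96 (adjusted p = 0.0116). The effective length that the authors' quantification gave the gene, a mean over its transcripts weighted by their share, was 1735 and 1834 bases with DMSO and 3274 and 3248 bases with dTAG13, that is, the estimate gave more reads to longer transcript models. In late 2-cell embryos the lengths were 1542, 1499 and 1571 with DMSO and 1968, 1778 and 2478 bases with dTAG13, and both units gave a lower level. No other member differed by more than 0.44 on the log2 scale between the groups' lengths. In morulae *Gnl2*, *Nle1* and *Gnl3* had longer models with dTAG13 by 0.36 to 0.39 (log2), so that for them TPM and counts point in opposite directions, within the error.

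The stages were then set against each other by testing the difference of the dTAG13 effects in 1 fit of all 18 libraries. Between the ICM and late 2-cell embryos, the effect was more negative in the ICM for 12 members and less negative or more positive for 6 (9.87% and 10.4% of 21915 genes). *Rpf1* differed most, by -2.56 (SE 0.18, adjusted p = 8.36e-08) on the log2 scale, followed by *Rsl24d1* at -2.43 (SE 0.22, adjusted p = 1.11e-06), *Nifk* at -2.09 (SE 0.20, adjusted p = 2.28e-06), *Rsl1d1* at -1.23 (SE 0.18, adjusted p = 9.32e-05) and *Gtpbp4* at -1.21 (SE 0.15, adjusted p = 3.14e-05). *Gtpbp4* did not pass in late 2-cell embryos, where it measured 405, 434 and 394 TPM with DMSO and 411, 380.1 and 407 TPM with dTAG13 (log2 fold change -0.082, SE 0.076, adjusted p = 0.612). In the opposite direction *Gnl2* differed by 1.18 (SE 0.18, adjusted p = 0.000206), *Sdad1* by 0.74 (SE 0.18, adjusted p = 0.00854), *Tma16* by 0.66 (SE 0.20, adjusted p = 0.0240), *Lsg1* by 0.62 (SE 0.19, adjusted p = 0.0236) and *Gnl3* by 0.54 (SE 0.13, adjusted p = 0.00851). Without any 1 of the ICM libraries 2 members or fewer were called on this side, and of these 5 only *Gnl2* passed with each library left out in turn.

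Between 2iES cells and the ICM, 10 members had the more negative effect in the cells and 4 the more positive (7.42% and 9.93% of all genes). *Ebna1bp2* differed by -2.19 (SE 0.19, adjusted p = 1.28e-06), *Rpf1* by -1.44 (SE 0.20, adjusted p = 0.000137), *Bop1* by -1.18 (SE 0.30, adjusted p = 0.0116), *Nop2* by -0.93 (SE 0.24, adjusted p = 0.0118) and *Ftsj3* by -0.72 (SE 0.22, adjusted p = 0.0336). The 4 on the other side were *Gnl3l* (1.35, SE 0.33, adjusted p = 0.00901), *Brix1* (1.14, SE 0.20, adjusted p = 0.000940), *Mak16* (0.75, SE 0.19, adjusted p = 0.0104) and *Rrp15* (0.63, SE 0.20, adjusted p = 0.0371). *Gnl3l*, a paralog of nucleostemin, was lower in the ICM and measured 2.25 and 3.90 TPM with DMSO and 3.69 and 3.76 TPM with dTAG13 in 2iES cells, with no call. This comparison and the one before share the ICM libraries, and only *Ebna1bp2*, *Rpf1* and *Brix1* of these 9 passed with each library left out in turn. The number of more negative members was 2 without 2iES dTAG13 replicate 2 and 4 without either ICM DMSO library.

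Morulae differed from late 2-cell embryos in 21 members, all with the less negative effect in morulae (0.680% of all genes were more negative there and 5.79% less). *Gnl2* differed by 2.38 (SE 0.19, adjusted p = 6.11e-07), *Rpf2* by 1.85 (SE 0.29, adjusted p = 0.000593), *Ppan* by 1.75 (SE 0.43, adjusted p = 0.0176), *Ebna1bp2* by 1.75 (SE 0.17, adjusted p = 3.93e-06) and *Nip7* by 1.45 (SE 0.17, adjusted p = 3.26e-05). The median difference was 0.55 over the members and 0.11 over all genes. The call of *Ppan* failed in 12 alternatives. The number of calls fell to 13 with library totals and to 12 without late 2-cell DMSO replicate 3.

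**Figure D3:**
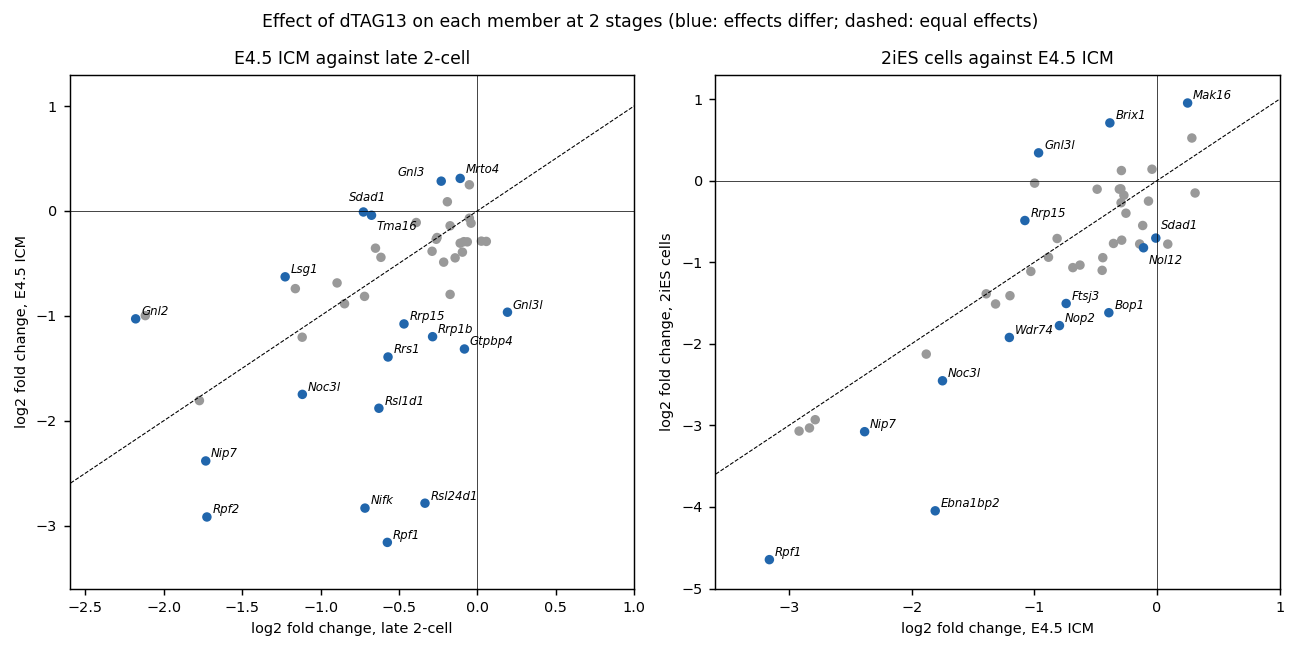
Log2 fold change with dTAG13 of each of the 45 genes in the ICM against late 2-cell embryos (left) and in 2iES cells against the ICM (right), with a dashed line of equal effects and with the genes whose effects differed by the test in blue and named. *Rpf1*, *Rsl24d1* and *Nifk* lie far below the line on the left, and *Ebna1bp2* below and *Brix1* above it on the right.

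The genes lower with dTAG13 were counted across the stages, which share no libraries. Of the 45, 19 were lower in late 2-cell embryos, the ICM and 2iES cells, which is 82.6% of those lower at late 2-cell, 50.0% of those in the ICM and 63.3% of those in 2iES cells. The ICM and 2iES cells had 28 in common (73.7% and 93.3%), late 2-cell embryos and the ICM 21 (91.3% and 55.3%). Of all genes tested at the same stages, 6.38% were lower at all 3, 22.0% in both the ICM and 2iES cells, and 7.43% in both late 2-cell embryos and the ICM, beside 42.2%, 62.2% and 46.7% of the 45 members. By the stricter rule, 6 genes were lower at all 3 stages, namely *Ebna1bp2*, *Gnl2*, *Nip7*, *Noc3l*, *Rpf2* and *Wdr74*, which is 13.3% of the members, against 1.96% of all genes. *Gnl3*, *Mak16*, *Mrto4* and *Pak1ip1* were lower at none.

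The members with small changes include several enzymes and complexes of the nuclear steps. *Mdn1*, the large ATPase that strips factors from the particle, measured 46.1 and 47.5 TPM with DMSO and 34.5 and 39.5 TPM with dTAG13 (log2 fold change -0.31, SE 0.046, adjusted p = 2.41e-07) in the ICM and was at -0.11 at late 2-cell and -0.10 in 2iES cells, without a call. *Las1l*, the endonuclease of the internal spacer, measured 28.4 and 27.1 TPM with DMSO and 23.6 and 24.6 TPM with dTAG13 (log2 fold change -0.25, SE 0.050, adjusted p = 2.53e-05) in the ICM, and 12.3 and 11.1 TPM with DMSO and 9.22 and 7.52 TPM with dTAG13 in 2iES cells (log2 fold change -0.40, SE 0.15, adjusted p = 0.0623). *Nop53*, which brings the exosome to the particle, was at -0.49 (SE 0.038, adjusted p = 3.01e-14) in the ICM, -0.21 (SE 0.11, adjusted p = 0.324) at late 2-cell and -0.11 (SE 0.18, adjusted p = 0.634) in 2iES cells. All 3 genes were called in the ICM alone, where standard errors were smallest, and the calls of *Mdn1* and *Las1l* there failed in the fit of all 18 libraries. The same held for the PeBoW genes *Pes1*, with 26.4 and 26.1 TPM with DMSO and 21.1 and 23.0 TPM with dTAG13 (log2 fold change -0.29, SE 0.049, adjusted p = 1.97e-06), and *Wdr12*, with 71.9 and 76.9 TPM with DMSO and 54.2 and 59.7 TPM with dTAG13 (log2 fold change -0.29, SE 0.036, adjusted p = 4.26e-09).

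The export adaptor *Nmd3* measured 304 and 309 TPM with DMSO and 255 and 268 TPM with dTAG13 in the ICM (log2 fold change -0.30, SE 0.029, adjusted p = 1.10e-11), a call that failed in the fit of all 18 libraries (adjusted p = 0.104). At late 2-cell it stood at 553, 614 and 648 TPM with DMSO and 650.4, 553 and 640.3 TPM with dTAG13 (log2 fold change -0.064, SE 0.090, adjusted p = 0.756). *Lsg1*, which acts on it, was lower at both of these stages, with log2 fold changes of -1.23 and -0.63. *Tma16* was called at late 2-cell, where it measured 59.7, 58.1 and 55.5 TPM with DMSO and 38.3, 34.4 and 45.01 TPM with dTAG13 (log2 fold change -0.68, SE 0.11, adjusted p = 0.00252), and at no other stage. *Sdad1* measured 34.4 and 30 TPM with DMSO and 33.6 and 31.5 TPM with dTAG13 in the ICM (log2 fold change -0.010, SE 0.049, adjusted p = 0.853), with overlap, but 55.0 and 42.4 TPM with DMSO and 29.9 and 28.2 TPM with dTAG13 in 2iES cells (log2 fold change -0.70, SE 0.13, adjusted p = 0.00477), and this last call failed without dTAG13 replicate 2 (adjusted p = 0.0557). *Pak1ip1* measured 108 and 111 TPM with DMSO and 107 and 108 TPM with dTAG13 in the ICM (log2 fold change -0.070, SE 0.033, adjusted p = 0.0505) and had no call at any stage.

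Members whose promoter window holds the motif letters were compared with those without, as a description. The median log2 fold change was -0.67 over the 18 with the letters and -0.23 over the 19 without in late 2-cell embryos, -0.94 and -0.30 in the ICM, -0.99 and -0.70 in 2iES cells, and 0.044 and -0.13 in morulae. At late 2-cell 13 with the letters and 7 without were lower, in the ICM 17 and 15, and in 2iES cells 15 and 11. Of all genes tested, 7.24%, 38.5% and 28.1% were lower at these stages. The split by the letters was not made over all genes, so these counts are not read as a result about the letters. The ranges overlapped at every stage. *Nifk*, whose stretch is printed above without a match, was at -2.83 in the ICM, and *Brix1*, with 2 matches, at 0.71 in 2iES cells.

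**Figure D4:**
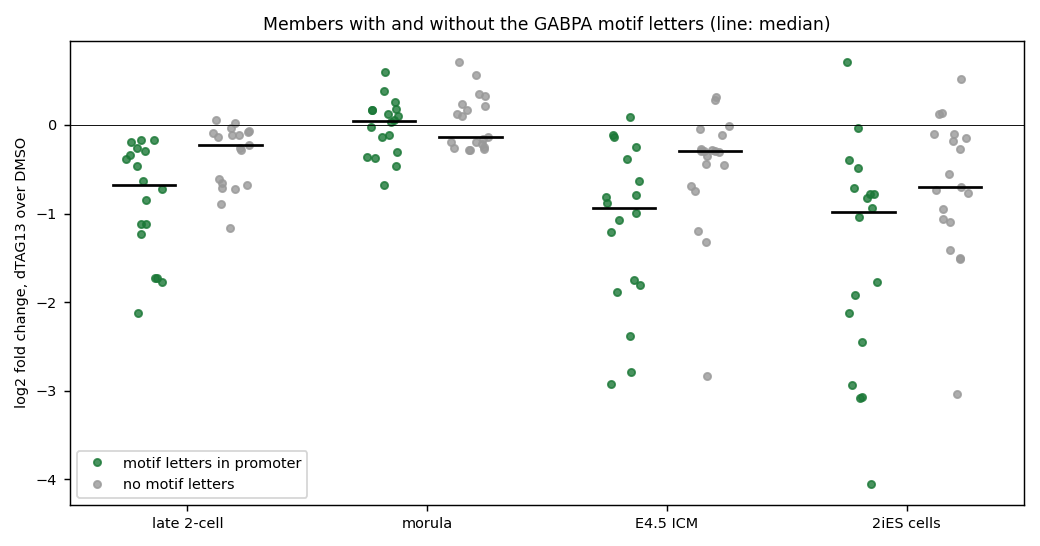
Log2 fold change with dTAG13 of the 37 genes with a promoter window in the table, by stage, with the 18 that hold CCGGAAG on either strand in green, the 19 that do not in grey and the median of each as a line. Points of both kinds overlap at each stage, and the medians lie farthest apart in the ICM.

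Other genes of the ribosome pathway were counted beside the members. Their counts are to be read against the shares of all genes, which were 7.24% lower and 1.32% higher at late 2-cell, 38.5% and 38.4% in the ICM and 28.1% and 26.5% in 2iES cells. Of 29 other large subunit factors tested in late 2-cell embryos, 12 were lower and none higher, with *Surf2* (mean 92.3 TPM with DMSO and 2.20 TPM with dTAG13) at -5.06 (adjusted p = 4.82e-06) and *Efl1*, the GTPase that releases EIF6, at -1.71 (adjusted p = 0.00337). Of 30 in the ICM, 22 were lower and 4 higher, and in 2iES cells 21 were lower and none higher. Small subunit factors numbered 55. At late 2-cell, 21 were lower, in the ICM 42 were lower and 6 higher, and in 2iES cells 40 were lower and 7 higher, with *Pwp2* (-1.43, adjusted p = 0.00115) and *Utp3* (-1.29, adjusted p = 2.57e-05) leading at late 2-cell. Of 14 RNA polymerase I genes, 3 were lower at late 2-cell, 8 in the ICM (3 higher) and 9 in 2iES cells (1 higher). In morulae no gene of these lists passed in edgeR, and unadjusted p was under 0.05 for 4 other large subunit factors, 12 small subunit factors and 2 RNA polymerase I genes. These were 13.3%, 21.8% and 14.3% of the lists, against 13.6% of all genes. For large subunit ribosomal proteins the share was 4.26%.

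Of the 47 large subunit ribosomal protein genes, 12 were lower and 1 higher at late 2-cell, 28 lower and 13 higher in the ICM, and 13 lower and 8 higher in 2iES cells. The lower genes made up 25.5%, 59.6% and 27.7% of the list, the last close to the 28.1% of all genes, with medians of -0.21, -0.10 and -0.086. *Rpl27* (-0.88, adjusted p = 0.000275) and *Rpl34* (-0.87, adjusted p = 0.000330) were those with the largest change at late 2-cell. The summed level of the 47 genes with dTAG13 was 61735 and 63272 TPM in the ICM, against 66930 and 68064 TPM with DMSO. Beside this, the median of the 45 assembly factors was -0.49 in the ICM and -0.78 in 2iES cells, where that of the small subunit factors was -0.40 and -0.64.

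**Figure D5:**
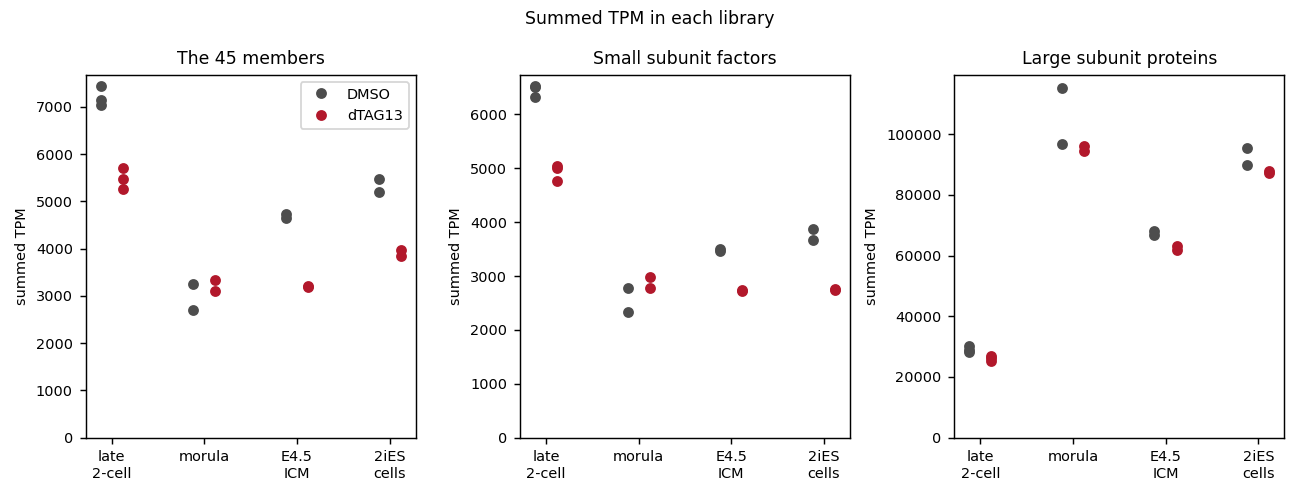
Summed TPM in each library (points) of the 45 genes, of 55 small subunit factors and of 47 large subunit ribosomal proteins, by stage and treatment, each on an axis that starts at 0. The 45 genes sum to 4653 and 4740 TPM in ICM libraries with DMSO and to 3187 and 3206 TPM with dTAG13, and the groups overlap in morulae for the 45 genes.

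Some members share sequence with other genes, so their counts are less certain. *Ddx18* shares 61.5% of its 31-base words with the gene model *Gm16433*, *Pes1* 25.5% with *Gm5910*, *Mrto4* 15.4% with *Mrto4-ps1* and *Rpf2* 12.1% with *Gm7733*. *Gm16433*, *Gm5910* and *Gm7733* stayed under 1 TPM in every library and *Mrto4-ps1* at or below 3.77 TPM. *Noc2l* and *Ddx54* overlap antisense exons of *Samd11* (20.9% of bases) and *Gm43579* (15.5%). *Gm43579* reached 16.8 TPM at late 2-cell, above *Ddx54* itself, which was between 9.72 and 13.5 TPM with DMSO.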

How the data were processed

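RNA-seq libraries were made with the SMART-Seq v4 and Nextera XT kits, which do not keep strand. Per the authors' methods and processing notes, STAR and RSEM were run on GRCm38 after trimming by Trimmomatic 0.39. They deposited, for each of 18 libraries, expected counts, TPM, FPKM and, as another column, the effective length of each gene. Replicates were not pooled. TPM and FPKM were used as the authors deposited them. The members, gene lists and promoter motif were chosen with earlier results of these data known. Expected counts were rounded and tested in edgeR 4.0.16 (R 4.3.3, quasi-likelihood test, TMM scaling, a minimum of 10 counts in a number of libraries equal to the smaller group) with only the libraries of a stage, and p-values were adjusted by Benjamini-Hochberg over all genes tested. Control stages were compared in 1 fit of 9 libraries and effects between stages in 1 fit of 18. SE is the fold change divided by the square root of the F statistic. Genes passed at an adjusted p under 0.05. Named were members called by the stricter rule, the 5 largest others that passed, up to 5 higher members, up to 5 each way in comparisons of stages, and up to 2 each way from other lists. Other genes named were chosen after their values were seen. Replicates of no group agreed within sampling noise (median chi-square over that of sampling 1.63 to 16.1, over genes with at least 50 mean counts). The ratio was 1.63 and 1.69 in the ICM groups, 2.84 in 2iES cells with dTAG13 and 8.17 to 16.1 in the other groups. Alternatives used DESeq2 1.42.0, limma 3.58.1 on log2(TPM + 0.1), other scalings and filters, and each library left out. Scripts were tested on simulated data. Wilson intervals cover counting error only. Python 3.11.15 and pandas 2.3.3 were used for tables. The series' chromatin assays were not used here.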

Additional observations from a re-analysis of the deposited data

Results flagged for a closer look

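A test of the difference itself set apart the dTAG13 effects of these members between stages (log2 values, the first stage minus the second, 18 libraries in 1 fit, edgeR). For the E4.5 ICM minus late 2-cell embryos, the differences were -2.56 for *Rpf1*, -2.43 for *Rsl24d1*, -2.09 for *Nifk*, -1.23 for *Rsl1d1*, -1.21 for *Gtpbp4*, 1.18 for *Gnl2*, 0.74 for *Sdad1*, 0.66 for *Tma16*, 0.62 for *Lsg1* and 0.54 for *Gnl3*. For 2iES cells minus the ICM, they were -2.19 for *Ebna1bp2*, -1.44 for *Rpf1*, -1.18 for *Bop1*, -0.93 for *Nop2*, -0.72 for *Ftsj3*, 1.35 for *Gnl3l*, 1.14 for *Brix1*, 0.75 for *Mak16* and 0.63 for *Rrp15*.

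For morulae minus late 2-cell embryos, the differences were 2.38 for *Gnl2*, 1.85 for *Rpf2*, 1.75 for *Ppan*, 1.75 for *Ebna1bp2* and 1.45 for *Nip7*. The morula libraries were the shallowest, and the treatment began at another stage and lasted for another time in each group, and stage and length of treatment cannot be told apart.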

How the results depend on the processing

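No called value turned its direction under any alternative run. The stricter rule left 9 lower members at late 2-cell, 14 lower and 0 higher in the ICM, and 19 lower and 0 higher in 2iES cells. In morulae 1 member was higher with no count filter, with DESeq2 and with the replicate block, 1 was lower and 3 higher in the fit of all 18 libraries, and 0 to 3 were higher with a library left out (3 without DMSO replicate 2). The fit of all 18 libraries left 24 lower in the ICM. Between control stages, upper-quartile scaling gave 10 higher from late 2-cell to morula and 12 higher from morula to ICM, and library totals gave 2 lower at the latter step and 17 lower and 14 higher from ICM to 2iES cells. Leaving out a library gave 1 to 4 lower (1 without either ICM library, 2 without morula DMSO replicate 1) and 10 to 24 higher from morula to ICM and 7 to 12 lower from ICM to 2iES cells. For effects between stages, it gave 1 to 7 higher (ICM minus late 2-cell), 2 to 12 lower and 2 to 5 higher (2iES cells minus ICM) and 12 to 24 higher (morula minus late 2-cell). A spread for each group (limma-voom) gave 18 lower and 8 higher for 2iES cells minus ICM, and library totals 13 higher for morula minus late 2-cell. The motif share was 32.4%, 64.9% and, in the 250 bases before the start, 29.7%. The cause of these shifts was not tested. Replicate numbers did not pair the libraries (correlations of deviations 0.024 to 0.049 at late 2-cell, 0.020 in the ICM and -0.12 in 2iES cells), and the replicate block gave 23 lower members at late 2-cell, 39 in the ICM and 30 in 2iES cells. A crossed block for 2iES cells, chosen after seeing the data, gave 30 lower and 3 higher. Upper-quartile scaling moved the median of all genes by 0.12 (log2) at late 2-cell, 0.10 in the ICM and 0.18 in 2iES cells, and scaling and library choice moved it by up to 0.22 for morula minus late 2-cell, so small changes are relative to the scaling. The morula libraries had the fewest counts, and what depth alone limits was not tested. Some of the libraries behind the widest ranges are named beside those results.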
